A study of Homo sapiens with 4 samples.

Results

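Metallothioneins and zinc response genes were examined in TXNDC9 knockout cells as a group of 10 genes, chosen by symbol from the 57979 genes of the deposited table: MT1E, MT1F, MT1G, MT1M, MT1X, MT2A, MTF1, SLC30A1, SLC39A10 and SLC39A14. The rule selects by symbol, but the symbols were picked with earlier results of these data known. Polyadenylated RNA was sequenced from 4 libraries of cells labelled HepG2, a hepatocellular carcinoma line, all grown in DMEM with fetal bovine serum. Wild type and TXNDC9 knockout were compared, with 2 libraries each. TXNDC9 encodes a thioredoxin domain protein, and its knockout was made with CRISPR-Cas9 and a lentiviral vector (lentiCRISPRv2). The sources used here do not say for these libraries which of the study's guides was used, or whether the cells were a clone or a pool. The labels do not say that the replicates came from separate cultures, and where the study's legends speak of independent experiments with RNA-seq they give another number of them than of libraries here. The p-values below therefore measure only the spread between these libraries, which may be technical. Levels are in FPKM, fragments per kilobase of transcript normalised to the mapped fragments of a library. This scales for transcript length, but differences between the groups still moved with length, as given below.

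Metallothioneins are small, cysteine-rich proteins that bind zinc, copper and cadmium and act as a buffer of free zinc in the cell. Their genes are switched on by MTF1, a zinc finger transcription factor that senses zinc and binds metal response elements, short sequences with a common core in metallothionein promoters. MTF1 also switches on SLC30A1, the zinc exporter of the plasma membrane, and holds down the importer SLC39A10 when zinc is plentiful. SLC39A14 is an importer of zinc, iron and manganese that is abundant in liver. Metallothioneins also respond to glucocorticoids and oxidative stress.

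The core of the metal response element is shown in the promoters of 3 members because it is the sequence that ties metallothioneins to MTF1. It was searched for as TGCACNC and TGCGCNC, on both strands, in the 250 bases before each transcription start. RefSeq promoters (GRCh38.p14) matched 5 of the 9 members looked up, MT2A, MT1X, SLC30A1, MTF1 and SLC39A10, and not MT1E, MT1F, MT1G or MT1M. In the sequences, printed 5′ to 3′ on the gene's strand, capitals mark the cores. The MT2A promoter lies at chr16:56608334-56608583 on the plus strand, that of MT1X at chr16:56682220-56682469 on the plus strand, and that of SLC30A1 at chr1:211579162-211579411 on the minus strand.
MT2A: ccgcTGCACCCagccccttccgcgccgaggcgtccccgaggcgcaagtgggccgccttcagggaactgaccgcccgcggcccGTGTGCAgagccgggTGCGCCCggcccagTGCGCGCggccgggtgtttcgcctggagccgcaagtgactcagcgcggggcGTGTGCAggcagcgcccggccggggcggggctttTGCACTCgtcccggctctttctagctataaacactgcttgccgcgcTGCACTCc
MT1X: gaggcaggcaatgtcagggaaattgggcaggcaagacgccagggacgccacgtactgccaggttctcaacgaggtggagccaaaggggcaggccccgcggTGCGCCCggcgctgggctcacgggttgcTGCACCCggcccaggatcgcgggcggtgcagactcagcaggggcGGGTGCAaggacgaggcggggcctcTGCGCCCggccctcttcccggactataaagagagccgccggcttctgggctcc
SLC30A1: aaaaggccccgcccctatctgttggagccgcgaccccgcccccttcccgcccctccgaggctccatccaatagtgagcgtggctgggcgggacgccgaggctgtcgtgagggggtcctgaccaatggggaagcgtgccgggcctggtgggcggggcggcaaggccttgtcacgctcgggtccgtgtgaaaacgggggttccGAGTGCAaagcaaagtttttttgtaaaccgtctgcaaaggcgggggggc

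The MT2A promoter held 7 cores, 5 of them on the gene's strand, and 11 of all 35116 promoter windows searched in the same way, its own included, held at least as many. The MT1X promoter held 4, and 0.37% of the windows held at least 4. SLC30A1 had 1 core, on the opposite strand, as 24.8% of all windows had at least 1. No core was found before the start of MTF1 or before the 2 starts of SLC39A10 in the RefSeq table, which says only that these letters are not in these windows. The annotated gene SLC39A10 begins further upstream, and that start was not searched.

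**Figure D1:**
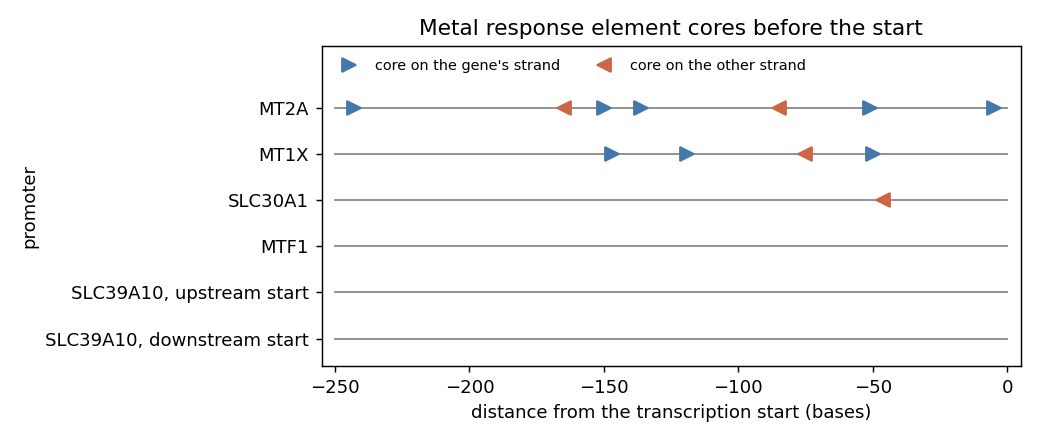
Positions of metal response element cores before the transcription start of 5 members (x axis: distance from the start in bases; each line is 1 promoter, and SLC39A10 has 2 starts in the RefSeq table). Triangles point in the direction of the core; MT2A has 7, MT1X has 4, SLC30A1 has 1 and the others have 0.

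The libraries were first checked against their labels. TXNDC9 itself had 35.1 and 37.3 FPKM in wild-type libraries, against 21.9 and 27.6 in those of the knockout. Its log2 fold change of −0.55 (SE 0.14) had an adjusted p of 0.0145 in limma, which missed the threshold used here, an adjusted p under 0.01 together with a 2-fold change. After rescaling to TPM, in which every library has the same sum, it was 0.12. The study reported reduced TXNDC9 protein by western blot in sorted HepG2 knockout cells, and RNA levels do not measure the protein. TXNDC9 overlaps 2 other annotated genes, among them EIF5B, whose mean reached 52.1 FPKM, and the use of strand in counting is not given in the sources used here. The hepatocyte genes that define HepG2 cells were near 0: none of 9, including albumin (ALB), alpha-fetoprotein (AFP), APOA1, APOB and HNF4A, averaged over 1 FPKM, and their highest single value was 0.449 FPKM, in AFP. APOA1 was listed at 0 in every library. Of 5 fibroblast markers 3 averaged over 1 FPKM, and the list summed to between 48.9 and 53.1 FPKM in wild-type and between 31.9 and 35.4 FPKM in knockout libraries. The collagen gene COL1A1 reached 31.5 FPKM, while COL1A2 was listed at 0. Of 4 endothelial markers CDH5 alone averaged over 1 FPKM, KDR was listed at 0, and the list summed to 0.803 and 1.22 FPKM in wild-type against 4.41 and 3.42 FPKM in knockout libraries. Of 5 leukocyte markers CD68 alone averaged over 1 FPKM, CD3E was listed at 0, and the list summed to between 4.13 and 7.53 FPKM. The values below are therefore those of cells labelled HepG2 in which hepatocyte markers were near 0. The part of the marker levels in any result was not tested. The deposited values summed to between 535973 and 971102 FPKM per library, with both knockout libraries below both wild-type libraries, and the read depth is unknown.

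Metallothionein mRNA was down-regulated upon TXNDC9 knockout. MT2A, the most abundant metallothionein, fell 5.79-fold, MT1X 5.79-fold, MT1E 4.29-fold and MT1F 2.81-fold. All 4 metallothioneins with an average above 1 FPKM passed the threshold downwards, beside 15.3% of the 13246 tested genes. That share was 24.3% for transcripts under 500 nt, as those of MT2A, MT1X and MT1F, and 38.4% from 500 to 1000 nt, as that of MT1E. After rescaling to TPM all but MT1F passed the threshold, with log2 fold changes of −1.83 for MT2A, −1.84 for MT1X, −1.40 for MT1E and −0.78 for MT1F. In the same libraries SLC30A1, SLC39A10 and SLC39A14 were up-regulated by 2.15-fold, 2.02-fold and 2.62-fold, beside 14.2% of the tested genes. Of genes with transcripts of 4000 to 8000 nt, as these have, 26.9% were called higher. The 3 transporter calls were lost after correction for transcript length and GC content. Those of SLC30A1 and SLC39A10 were also lost after centring on the median. Of the 10 members 8 were tested, and 7 of these were called, against 29.5% of all tested genes in either direction. Calls over all genes split into 2021 lower and 1885 higher as deposited, 447 and 4380 after rescaling to TPM, and 2601 and 1452 after centring on the median. MT1G and MT1M had too little signal to be tested. In bulk RNA fewer expressing cells and less mRNA per cell cannot be told apart.

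MT2A encodes metallothionein 2A, the main form in most human cells, from a gene on the plus strand of chromosome 16 (hg38, 56608584 to 56609497, ENSG00000125148). Wild-type cells gave 1008 and 1519 FPKM and knockout cells 233 and 204 FPKM. The groups were far apart, with wild-type replicate 2 above replicate 1. Group means were 1263 ± 361 and 218 ± 20.6 FPKM (SD, n = 2). With limma on log2(FPKM + 0.1) the log2 fold change was −2.51 with an SE of 0.23. Its Benjamini-Hochberg adjusted p in limma was 6.16e-04. By level MT2A ranked 128th and 107th among all genes of the wild-type libraries, and 315th and 404th in those of the knockout.

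MT1X, a metal-inducible member of the MT1 branch (chromosome 16, 56682470 to 56684196, plus strand, ENSG00000187193), had 105 and 152 FPKM in wild-type cells against 24.9 and 19.4 in knockout cells. Its log2 fold change of −2.52 (SE 0.21) had an adjusted p of 5.72e-04 in limma. MT1X and MT2A were the 116th and 117th lowest of the 13246 tested genes by fold change, and MT1E and MT1F the 219th and 980th. MT1E (56625475 to 56627112, plus strand, ENSG00000169715) went from 65.8 and 87.6 to 18.7 and 17.1 FPKM. Its log2 fold change was smaller, −2.08 with an SE of 0.16 and an adjusted p of 5.38e-04 in limma. MT1F (56657731 to 56660698, plus strand, ENSG00000198417) was far lower throughout, and went from 3.84 and 3.57 to 1.37 and 1.27 FPKM. A log2 fold change of −1.42 (SE 0.19) came with an adjusted p of 0.00143 in limma. For all 4 genes both knockout values lay below both wild-type values, as they did for 45.9% of the tested genes.

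**Figure D2:**
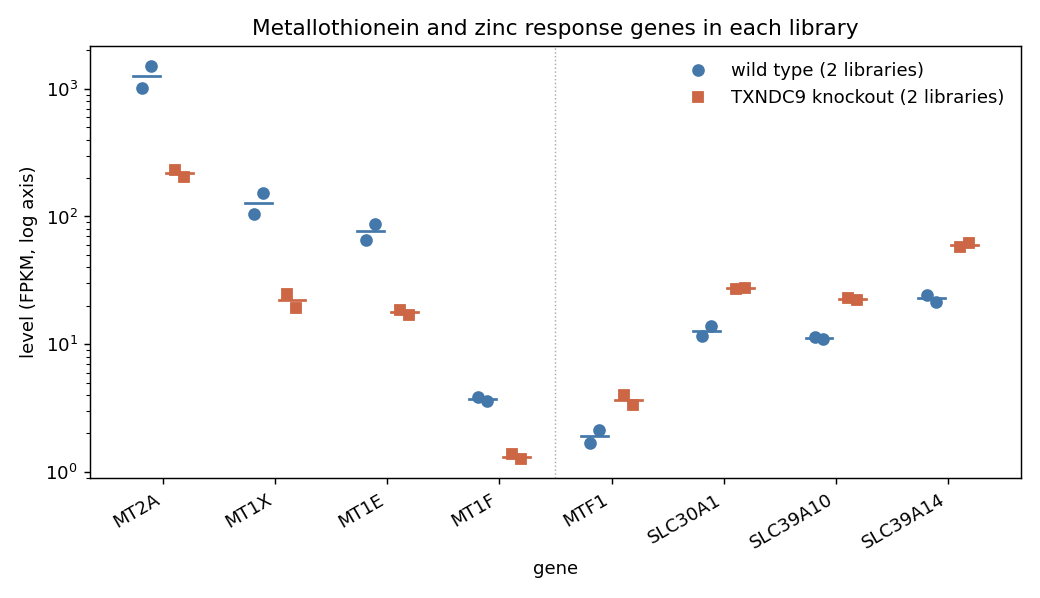
FPKM of the 8 tested members in each library (y axis: FPKM, log axis; points: single libraries; short lines: mean of the 2 libraries of a group). The 4 metallothioneins on the left are lower in both knockout libraries, and MTF1 and the 3 transporters on the right are higher in both.

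The order of the levels, MT2A above MT1X above MT1E above MT1F, was the same in every library. Summed over the 6 metallothionein members, mRNA went from 1183 and 1762 FPKM to 278 and 241 FPKM, a 5.67-fold lower mean. In TPM the mean was 3.48-fold lower. No test was made on the sum. MT2A made up 85.2% and 86.2% of the sum in wild-type libraries and 83.8% and 84.4% in knockout libraries. The share of MT1X was between 8.03% and 8.98% in all 4 libraries. The share of MT1E was 5.56% and 4.97% in wild-type libraries and 6.73% and 7.07% in knockout libraries, and that of MT1F also lay higher in both knockout libraries. The shares of MT1X overlapped between the groups, while those of the other 3 did not. Groups without overlap are frequent with so few libraries. In FPKM, both knockout values lay below both wild-type values for 45.9% of the tested genes, and above both for 40.1%. The shares are parts of the same sum and so do not vary independently, and no test was made on them.

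**Figure D3:**
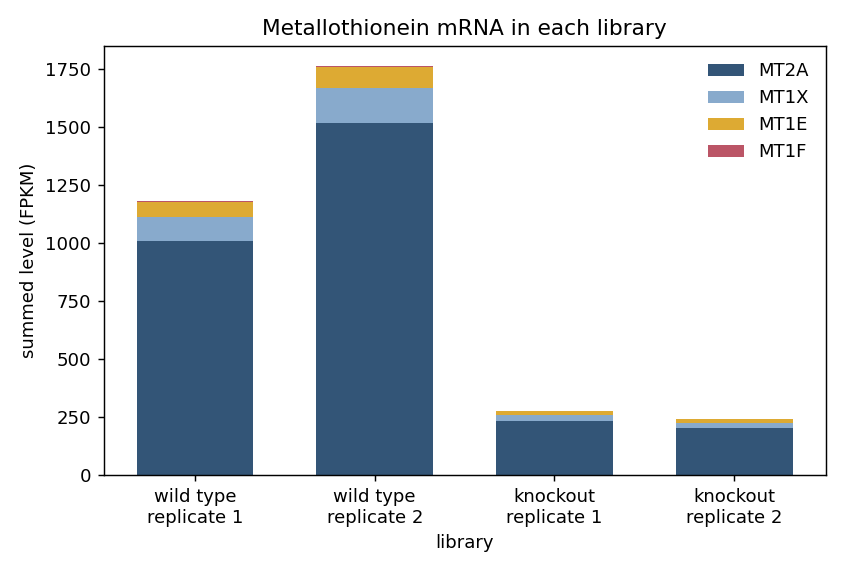
Summed FPKM of MT2A, MT1X, MT1E and MT1F in each library (y axis: FPKM from 0; each bar is 1 library, with the genes stacked; MT1G and MT1M are too low to draw). The wild-type bars stand at about 1183 and 1762 FPKM and the knockout bars at about 278 and 241 FPKM, with MT2A as the main part of each.

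MT1G was 0.400 and 0.522 FPKM in wild-type libraries and listed at 0 in both knockout libraries, below the level at which genes were tested. MT1M was listed at 0 in all 4 libraries. Both are members that many tissues induce on exposure to metals. Of 17 symbols of metallothionein genes and pseudogenes, 16 were in the table and 4 were tested, all of them called lower. Apart from these and MT1G, the other 11 were listed at 0 in every library, among them MT3 and MT4, the forms of brain and of stratified epithelium. Reads of one metallothionein can be assigned to another where their sequences are identical. Of all stretches of 50 bases in the canonical transcript, 11.1% of those of MT2A, 10.3% of MT1E and 6.1% of MT1F also occurred in annotated transcripts of other genes. For MT1X it was 51.0%, and 33.0% of its stretches occurred in an overlapping gene on the same strand (ENSG00000259827). The split between MT1X and MT1G, which share 13.2% of the stretches of MT1X, is uncertain to that extent. MT1X also shares 10.7% of its stretches with MT1XP1 and 3.9% with MT2A, whose level was higher in every library. How far reads of MT2A entered the level of MT1X was not tested.

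MTF1 (chromosome 1, 37809574 to 37859592, minus strand, ENSG00000188786), the activator of metallothionein genes, was expressed at a low level. The values were 1.69 and 2.14 FPKM without the knockout and 4.02 and 3.34 FPKM with it. Both knockout values lay above both wild-type values, as for 40.1% of the tested genes. Its log2 fold change of 0.91 (SE 0.20) had an adjusted p of 0.00978 in limma but stayed under 2-fold. It was 1.58 and called in TPM, and 1.07 and called without wild-type replicate 2.

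SLC30A1 (chromosome 1, 211571568 to 211579161, minus strand, ENSG00000170385) went from 11.7 and 13.8 FPKM to 27.2 and 27.7 FPKM, with no overlap between the groups. The log2 fold change of 1.11 (SE 0.12) had an adjusted p of 8.43e-04 in limma. It fell short of 2-fold without wild-type replicate 1 (0.99), after centring on the median (0.96) and after the length and GC correction (0.28), and was 1.79 in TPM. Both MT2A and SLC30A1 are known targets of MTF1, and in FPKM as deposited MT2A fell while SLC30A1 rose. The ratio of MT2A to SLC30A1 within a library, from which the scaling of the library cancels, was 86.4 and 110.1 in wild-type libraries and 8.57 and 7.35 in knockout libraries. Differences tied to transcript length do not cancel from it, and after the correction described below MT2A was at −2.07 and SLC30A1 at 0.28, with an adjusted p of 0.133 in limma.

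The importer SLC39A10 (chromosome 2, 195575977 to 195737702, plus strand, ENSG00000196950) had 11.4 and 10.9 FPKM in wild-type cells against 22.9 and 22.3 in knockout cells. The replicates of each group were close together and the groups far apart. A log2 fold change of 1.01 (SE 0.10, adjusted p = 6.82e-04 in limma) stood just above the 2-fold threshold, and it was below it without wild-type replicate 2 (0.98), without knockout replicate 1 (0.99), after centring on the median (0.87) and after the length and GC correction (0.15). In TPM it was 1.69. SLC39A14 (chromosome 8, 22367278 to 22434129, plus strand, ENSG00000104635) went from 24.2 and 21.6 FPKM to 58.1 and 61.9 FPKM. It rose more than the other members as deposited, with a log2 fold change of 1.39 (SE 0.11, adjusted p = 5.38e-04 in limma), 2.07 in TPM and 0.96 after the correction. The order of the 4 genes by level, SLC39A14 above SLC30A1 above SLC39A10 above MTF1, was the same in every library.

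Transcript length moved with these differences. The canonical transcripts of MT2A, MT1X and MT1F have 401, 404 and 425 nt and that of MT1E has 746 nt, while those of SLC39A14, SLC39A10, SLC30A1 and MTF1 have 4663, 5222, 5893 and 7937 nt. Across all tested genes the median log2 fold change was −0.51 for transcripts under 500 nt, −0.91 from 500 to 1000 nt, 0.54 from 4000 to 8000 nt and 0.90 above that. The metallothioneins lay below the median of their length class, and SLC30A1, SLC39A10 and SLC39A14 above that of theirs. MTF1, at 0.91, also lay above the median of that class.

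**Figure D4:**
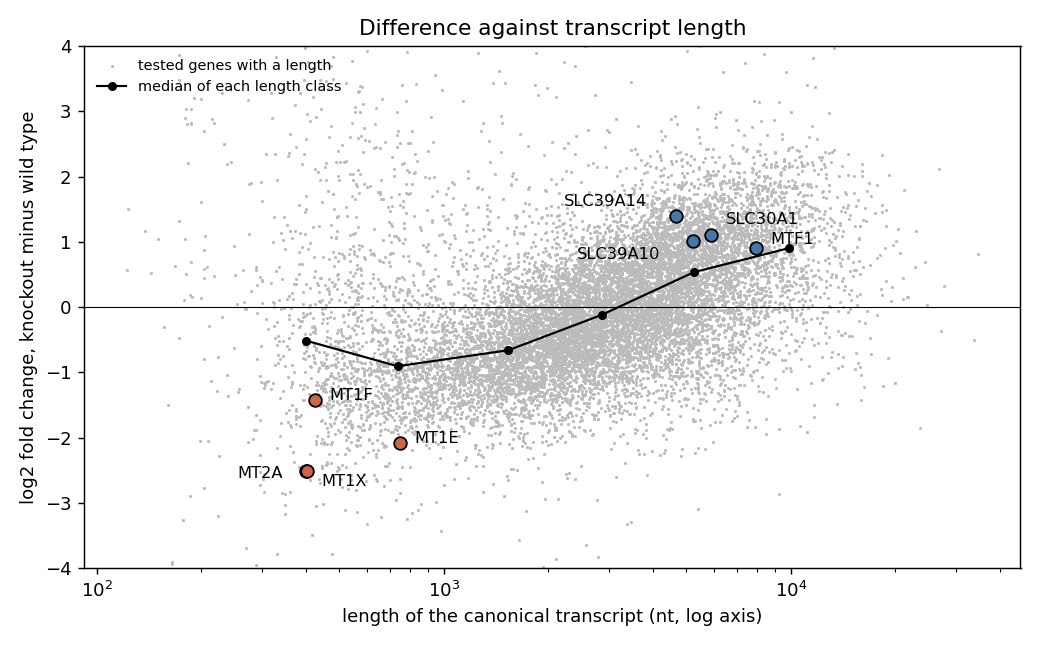
Log2 fold change of knockout against wild type (y axis) against the length of the canonical transcript (x axis: nt, log axis) for 13042 tested genes, with 70 outside the axis range of 4. Large points are the 8 tested members (red for metallothioneins, blue for MTF1 and transporters), and the black line joins the medians of 6 length classes, which run from −0.51 for the shortest to 0.90 for the longest.

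Each library was then corrected for transcript length and GC content with a loess curve, after which 7.5% of 13112 genes were called lower and 6.3% higher. The metallothioneins kept their calls with all 4 libraries, while without either knockout library MT1X and MT1E alone kept them, and without wild-type replicate 1 MT1F lost its call. The corrected log2 fold change was −2.07 (SE 0.19) for MT2A, −2.30 (SE 0.19) for MT1X, −1.41 (SE 0.12) for MT1E and −1.02 (SE 0.16) for MT1F. Of the corrected genes 1.12% were lower than MT2A after the correction, 0.74% lower than MT1X, 4.02% lower than MT1E and 8.92% lower than MT1F. The transporters lost their calls. SLC30A1 went to 0.28 (SE 0.13), SLC39A10 to 0.15 (SE 0.09) and MTF1 to 0.10 (SE 0.21), and over all 8 alternatives with a correction their adjusted p in limma ranged from 0.00552, for SLC39A10 corrected for length alone, to 0.944. SLC39A14 stayed near the 2-fold line at 0.96 (SE 0.09), with an adjusted p in limma between 5.36e-04 and 0.0167 over the same alternatives, and 91.0% of the corrected genes were lower than it. None of the 8 members was called higher after the correction, beside the 6.3% of all genes. A positive estimate with an unadjusted p under 0.05 in limma was found for 1 of them, as for 3410 of the 13112 genes.

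**Figure D5:**
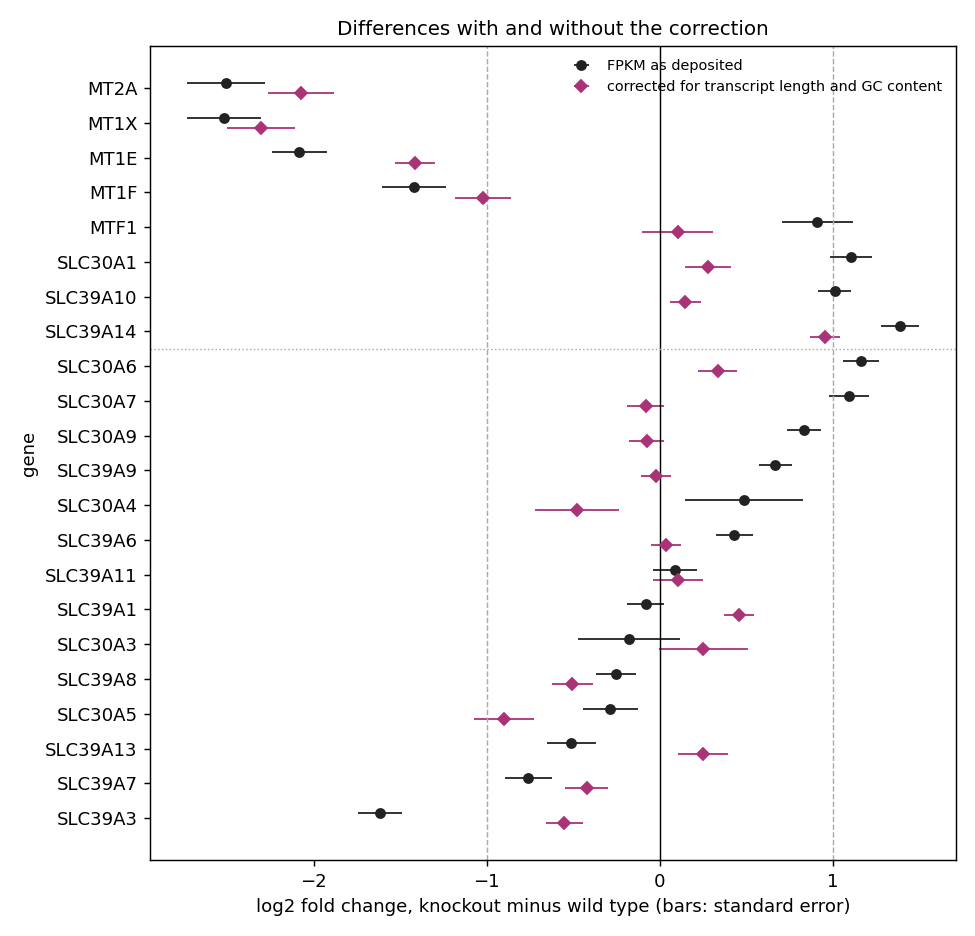
Log2 fold change of knockout against wild type (x axis; bars: standard error) for the 8 tested members, above the dotted line, and 14 other tested zinc transporters, from FPKM as deposited (black) and after correction for transcript length and GC content (purple). The dashed lines mark a 2-fold change. The 4 metallothioneins stay beyond it after the correction, and no zinc transporter does.

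Without knockout replicate 1, or without knockout replicate 2, as deposited, no gene of the 13246 passed the threshold in limma, with 7129 and 7307 genes at an unadjusted p under 0.05. The lone library is then assumed to vary like the wild-type libraries. The log2 fold change of MT2A was −2.60 and −2.41 in these fits (adjusted p = 0.0243 and 0.0247 from limma, and between 1.39e-05 and 0.0247 over all 20 alternatives). Without wild-type replicate 1 or 2 it was −2.80 and −2.21, and MT2A kept its call.

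The wider family of zinc transporters was described by counts. It has 2 branches, the ZnT exporters (SLC30A), which carry zinc out of the cytosol, and the ZIP importers (SLC39A), which carry it in. Of 24 transporters in the list, 17 were tested and 6 called, 5 higher and 1 lower, beside the 29.5% of all tested genes. Their median log2 fold change was 0.43, and 0.04 after the correction, against −0.09 and −0.06 for all tested genes. This list includes SLC30A1, SLC39A10 and SLC39A14. Of the 14 tested transporters outside the members, 2 were called higher and 1 lower, and 7 estimates were positive and 7 negative. The median of these 14 was 0.004, and −0.05 after the correction. After the correction limma called none of the 17, beside 13.8% of all corrected genes. An unadjusted p under 0.05 was reached by 7 of the 17, as by 7706 of all 13112 genes. Among the exporters, SLC30A6, which works with SLC30A5 in the early secretory pathway, went from 7.24 and 7.79 to 16.7 and 17.2 FPKM (log2 fold change 1.16, adjusted p = 6.05e-04 in limma). Its partner SLC30A5 had overlapping values, 38.8 and 49.5 against 32.8 and 39.4 FPKM. SLC30A7, a Golgi exporter, had 3.82 FPKM in both wild-type libraries against 8.32 and 8.19 FPKM (log2 fold change 1.09, adjusted p = 8.21e-04 in limma). After the correction SLC30A6 went to 0.34 and SLC30A7 to −0.08. SLC30A5 went from −0.28 to −0.90, with an adjusted p of 0.0103 in limma, and was not called.

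Among the importers SLC39A3, a ZIP of the plasma membrane, was the only one called lower. Its level went from 56.2 and 66.5 to 18.7 and 21.1 FPKM, a log2 fold change of −1.62 (SE 0.13, adjusted p = 5.38e-04 in limma), and −0.55 after the correction. The most abundant transporters were the importers SLC39A1, at 153 and 150.4 FPKM against 142 and 145 FPKM upon knockout, and SLC39A7, a ZIP of the endoplasmic reticulum and Golgi, at 143 and 175 against 90.0 and 96.8 FPKM. SLC39A1 had a log2 fold change of −0.08 and SLC39A7 one of −0.76, and neither was called. After the correction SLC39A1 changed sign to 0.46 and SLC39A7 went to −0.42, and again neither was called. SLC30A10, of the ZnT family, and SLC39A5, of the ZIP family, stayed below 0.1 FPKM in every library.

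Copper handling genes were described because metallothioneins also bind copper. Of 14 genes 13 were tested, with 4 called lower and 1 higher, beside 29.5% of all tested genes. Their median log2 fold change was −0.66 against −0.09, and −0.35 against −0.06 after the correction. The genes called lower encode copper chaperones and assembly factors. Other assembly factors of the list, COX11 (0.44), SCO1 (0.02) and COA6 (−0.66), were not called. After the correction these were at −0.005, −0.93 and −0.62, and were not called either. ATOX1, which hands copper to the export ATPases, went from 114 and 179 to 42.5 and 45.8 FPKM (log2 fold change −1.69, adjusted p = 0.00143 in limma). COX17, the chaperone of cytochrome oxidase, had a log2 fold change of −1.41, CCS, which loads copper into superoxide dismutase, one of −1.31, and SCO2 one of −1.55. ATP7A, the copper export ATPase, went from 1.16 and 1.09 to 5.38 and 5.21 FPKM (log2 fold change 2.14, adjusted p = 5.38e-04 in limma). ATP7A and ATOX1 overlap other expressed genes, so reads could be shared where strand was not used. After the correction 3 of 12 were called, beside 13.8% of all genes: ATOX1 at −1.12, COX17 at −1.27 and ATP7A at 1.04, while CCS went to −0.26 and SCO2 had no transcript length to correct with.

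The gene whose values over the 4 libraries were most like those of MT1X, the member with the largest change, was AC024592.12, by the Euclidean distance of centred log2(FPKM + 0.1) among 13245 genes (distance 0.119). MT2A came next (0.127) and the pseudogene CHMP4BP1 after it (0.162), while MT1E ranked 53rd and MT1F 961st. AC024592.12 went from 19.2 and 28.4 to 4.24 and 3.21 FPKM. With 4 libraries such a likeness rests on few points, and MT2A rather than MT1X had the larger change with a pseudocount of 1 or without wild-type replicate 1.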

How the data were processed

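Polyadenylated RNA from cells labelled HepG2 was sequenced in 2 wild-type and 2 TXNDC9 knockout libraries. The authors mapped reads to hg38 with TopHat2 using an Ensembl annotation without new junctions, and deposited FPKM per gene and library from Cuffdiff. Versions, the scaling of libraries and whether counting used strand are not given in the sources used here. The table also holds the authors' group averages, fold changes, p-values and q-values, which were not used. Its identifiers were out of register with the symbols and were put back in order, after which the identifiers of all 10 members had their symbol in GENCODE release 44. Of 13112 tested genes whose identifier was found there, 11172 had the same symbol, 972 identifiers had no symbol and 968 had a different one.

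The 13246 genes whose FPKM averaged above 1 entered a limma fit (version 3.58.1, R 4.3.3) of log2(FPKM + 0.1), using a mean-variance trend, Benjamini-Hochberg adjustment and no replicate block. Fold changes on this scale understate those of low genes. Called genes had an adjusted p under 0.01 together with at least a 2-fold change. The exact permutation test of 2 against 2 libraries cannot go below p = 0.33. Lengths and GC content of canonical transcripts came from GENCODE release 44, and the correction used a loess curve with span 0.3 in each library. Deviations of same-numbered libraries from their groups correlated at −0.0904 over all tested genes. This value shows no shared deviation, but cannot tell whether same-numbered libraries were prepared together. The members and lists were chosen with earlier results of these data known. The genes named are TXNDC9, the members, and the called genes and the 2 largest changes of each list. Named too are the 3 genes most like the member with the largest change. SLC30A5, SLC39A1, SLC39A7, SLC30A10, SLC39A5, COX11, SCO1, COA6, MT3 and MT4 were added after their values were seen. FPKM hold no counts, so the depth is unknown and no interval for it is given. Tables and figures were made in Python 3.11.15 (numpy 2.4.6, scipy 1.17.1, pandas 2.3.3, matplotlib 3.10.9).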

Additional observations from a re-analysis of the deposited data

How the results depend on the processing

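The falls of MT2A, MT1X and MT1E kept their direction under all 20 alternatives run for each, with log2 fold changes from −2.80 to −1.83 for MT2A, from −2.78 to −1.84 for MT1X and from −2.29 to −1.30 for MT1E. MT1F was lower in all 19 of its alternatives, but at −0.78 was not called after rescaling to TPM. That rescaling, of each library to the same sum, shifts the median of all genes by 0.673 on the log2 scale and takes the higher share of calls from 48.3% to 90.7%; centring on the median gives 35.8%. Under TPM, MTF1 at 1.58 was called, as it was without wild-type replicate 2, TXNDC9 at 0.12 changed sign, and the log2 ratio of the summed metallothioneins moved from −2.50 to −1.80. Centring on the median took SLC30A1 to 0.96 and SLC39A10 to 0.87, and the zinc transporters called to 3. With a pseudocount of 1 SLC39A10 was 0.96. With no filter on low values MT1G was tested too, and limma called it lower.

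Corrected for length and GC content, with or without the replicate block and with a loess span of 0.7, chosen after seeing the data, 4 members, 0 zinc transporters and 3 copper genes were called. Calls over all genes fell to 1809, 1713 with the replicate block and 1833 with the wider span. SLC30A1 was 0.28, 0.28 with the replicate block and 0.29 with the wider span, SLC39A10 0.15, 0.15 and 0.16, and SLC39A14 0.96, 0.96 and 0.97. Corrected for length alone, 2376 genes, 4 members, 1 zinc transporter and 3 copper genes were called, with SLC30A1 at 0.54, SLC39A10 at 0.53, SLC39A14 at 0.99 and TXNDC9 at 0.018, which changed sign. Corrected for length and GC content and without wild-type replicate 1 or knockout replicate 1, MTF1 was −0.11 and −0.03. Without the correction the replicate block changed no call among the members.

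With 1 library left out, corrected or not, the ranges were 0 to 7 members, 0 to 5 zinc transporters, 0 to 7 copper genes, 0 to 4 metallothioneins of the cluster and 0 to 4769 of all genes called. Log2 fold changes were −2.29 to −1.30 for MT1E, −1.47 to −0.89 for MT1F, −2.78 to −2.10 for MT1X, −2.80 to −1.86 for MT2A, −0.11 to 1.07 for MTF1, 0.12 to 1.23 for SLC30A1, 0.14 to 1.04 for SLC39A10 and 0.92 to 1.47 for SLC39A14. The causes were not tested. In the window of 250 bases before and 50 after the start, 29.6% of promoters held a core, and 24.8% in the bases before the start alone.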
